A study of Homo sapiens with 19 samples.

Results

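The genes described here are 36 genes of mitosis, the spindle checkpoint and cytokinesis, chosen by name. They were followed in MDA-MB-231, a human breast cancer cell line, and in sublines derived from it. A gene was measured through probe sets annotated to that gene alone, and through the brightest of them where there were several. This left 35 of the 36 genes among the 9550 genes tested, because no probe set was annotated to ANLN alone. ANLN encodes anillin, a scaffold of the cytokinetic ring.

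Messenger RNA was profiled on 19 Affymetrix arrays, 1 array for each line. The groups were the parental MDA-MB-231 line (1 array), modal-ploid sublines (2), hyper-ploid sublines (2), weakly bone-metastatic lines (3), strongly bone-metastatic lines (4), weakly lung-metastatic lines (3) and strongly lung-metastatic lines (4). The sublines 1833-Modal and 1833-Hyper came from line 1833, and 4175-Modal and 4175-Hyper came from line 4175. The weakly bone-metastatic lines were 2293, 2295 and 2296, of which 2296 is its title's name and 2297 that of its cell line label. The strongly bone-metastatic lines were 1833 itself, 2274, 2268 and 2269. The weakly lung-metastatic lines were SCP21, SCP6 and SCP26, and the strongly lung-metastatic lines were 4142, 4173, 4175 itself and 4180. All 19 shared the MDA-MB-231 origin, a serum-containing medium with selective drugs as each line required, and harvest before confluence. Each line was cultured and measured once. A p-value for bone or lung lines thus reflects the spread between lines of a group, and not that between cultures of a line. For ploidy, only 1 residual degree of freedom came from how far the 2 pairs differ, and most of the spread from a prior over all genes. The title asks how spontaneous doubling of ploidy relates to metastasis.

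At mitotic entry the kinase CDK1 with cyclins A and B, Aurora kinases and PLK1 drive chromosome condensation and spindle assembly. The checkpoint proteins BUB1, BUB1B, BUB3, MAD2L1 and TTK hold back CDC20, the activator of the anaphase-promoting complex, until kinetochores are attached to microtubules. The complex then has securin (PTTG1) and cyclin B degraded, and PRC1, KIF23, RACGAP1, ECT2 and ANLN organise the central spindle and the cleavage furrow. Most of these genes are transcribed in G2 and M phase, and their promoters are known for CCAAT boxes, bound by NF-Y, and for the cell cycle homology region, bound by the MuvB core of complexes that include MYBL2 and FOXM1. A failed cytokinesis or a cell fusion doubles the chromosome set, and cultures with more dividing cells carry more RNA of most of these genes.

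Promoter sequences show what the genes share besides their function. The RefSeq promoter table for GRCh38.p14 held 28 of the 36 genes (250 bases before to 50 after each start); BUB3, AURKA, TTK, BIRC5, FOXM1, TPX2, RACGAP1 and UBE2C were not in it. The 150 bases before the start are given 5′ to 3′ on the gene's strand for CDC20, which stood highest in strong against weak bone lines, for CCNB2 and PRC1, named below for the lung lines, for ASPM, lower in each hyper-ploid subline than in its modal-ploid pair without passing the test, and for KIF2C. Capitals mark CCAAT and TTTGAA or their reverse complements ATTGG and TTCAAA.
CDC20: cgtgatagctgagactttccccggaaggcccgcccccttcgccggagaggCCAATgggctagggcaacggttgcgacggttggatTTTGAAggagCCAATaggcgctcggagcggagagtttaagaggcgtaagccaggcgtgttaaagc
CCNB2: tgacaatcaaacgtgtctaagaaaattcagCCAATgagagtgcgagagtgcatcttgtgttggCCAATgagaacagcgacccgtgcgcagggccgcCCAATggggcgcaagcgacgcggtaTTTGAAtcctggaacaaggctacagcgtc
PRC1: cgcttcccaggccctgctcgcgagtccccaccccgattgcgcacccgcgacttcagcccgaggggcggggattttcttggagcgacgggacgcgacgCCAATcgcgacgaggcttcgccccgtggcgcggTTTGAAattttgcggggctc
ASPM: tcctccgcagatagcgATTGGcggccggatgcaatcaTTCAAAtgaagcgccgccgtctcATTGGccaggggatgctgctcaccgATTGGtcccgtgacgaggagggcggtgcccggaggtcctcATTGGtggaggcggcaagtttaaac
KIF2C: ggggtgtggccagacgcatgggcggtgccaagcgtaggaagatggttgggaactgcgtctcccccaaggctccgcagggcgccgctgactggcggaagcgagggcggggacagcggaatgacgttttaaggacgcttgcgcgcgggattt
These stretches lie at chr1:43358831-43358980 (plus strand), chr15:59104996-59105145 (plus strand), chr15:90994536-90994685 (minus strand), chr1:197146670-197146819 (minus strand) and chr1:44739687-44739836 (plus strand).

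The promoters of CDC20, CCNB2, PRC1 and ASPM each held 1 TTTGAA in these 150 bases, beside 2 CCAAT motifs in CDC20, 3 in CCNB2, 1 in PRC1 and 4 in ASPM. The KIF2C stretch held neither motif. Among stretches not printed, those of CENPE and MAD2L1 held neither, and those of CENPF and BUB1 held CCAAT alone. That of BUB1B held TTTGAA alone and that of KIF4A both. Over the whole window and both strands, TTTGAA occurred in 20 of 28 genes (71.4%), against 15.4% of all 27305 promoters in the table. The variant TTCGAA occurred in 2 of 28 (7.14%, against 1.45%), and either of them in 21 (75.0%, against 16.6%), NDC80 holding both. CCAAT occurred in 23 of 28 (82.1%, against 35.7%), and at least 2 CCAAT in 14 of 28, against 11.3%. None of the 3 motifs can lie within another, and each was counted by itself. In 86 related genes of mitosis with a promoter in the table, listed below by class, the shares were 43.0% for TTTGAA and 62.8% for CCAAT. A match is a string of letters and not a site known to be bound. Of the genes measured, 20 with TTTGAA or TTCGAA had a median log2 difference between strong and weak lung lines of 0.13, and 7 without had 0.37, and for bone lines the medians were 0.02 and 0.08.

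All 35 measured genes were above their array's 40th percentile of signal on all 19 arrays, so every one passed the filter on dim genes in every group. Signals are in array units scaled to a common array median, and differences are on the scale log2(signal + 16), on which 1 is a doubling. Within a gene, the highest array stood 1.44-fold (NUSAP1, a spindle protein) to 4.4-fold (PRC1, the microtubule bundler of the central spindle) above the lowest, with a median of 2.38-fold. The within-group SD had a median of 0.25 over the 35 genes, against 0.32 over all 9550 genes and 0.26 over the 4893 genes at least as bright as the dimmest of them.

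The 35 genes tended to be high or low on the same arrays. The deposited ratios formed an array set of 10 (parental, the 1833 pair and the bone lines) and an array set of 9 (the 4175 pair and the lung lines), and arrays were set against the mean of their own set. As a description, the Pearson correlation of each gene with the median of the other 34 was taken, on values that share each array's scaling. The median of these correlations was 0.56 over the first 10 arrays and 0.70 over the other 9. MAD2L1, a checkpoint protein that binds CDC20 directly, had correlations of -0.26 and -0.34. RACGAP1, the GTPase-activating subunit of centralspindlin, had -0.06 in the first set, and the checkpoint kinase BUB1 had -0.09 in the second.

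The median of the 35 genes was highest in 4175-Modal (0.37 above its set's mean, 33 of 35 genes above), in the strongly bone-metastatic line 2268 (0.27, 30 of 35) and in the strongly lung-metastatic line 4175 (0.19, 29 of 35). It was lowest in the weakly lung-metastatic SCP26 (-0.39, 5 of 35 above) and in the weakly bone-metastatic 2296 (-0.25, 3 of 35). Next were the weakly lung-metastatic SCP21 (-0.21) and the strongly bone-metastatic 2269 (-0.19, 3 of 35). The DNA replication genes, 21 genes given for reference, were also lowest in SCP26 (-0.63), 2269 (-0.40) and 2296 (-0.33). The arrays of SCP26, 2269 and 4180 had the highest median signals before scaling (163.0, 161.9 and 161.8). Scaled to a common trimmed mean in place of the median, 2269 stood at 0.03 and 4180 at 0.01, while SCP6 (-0.37), SCP26 (-0.22) and SCP21 (-0.19) were the lowest. The part of the array's overall signal in these medians was not tested. In RNA from whole cultures, fewer dividing cells and less of these RNAs per dividing cell cannot be told apart.

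**Figure D1:**
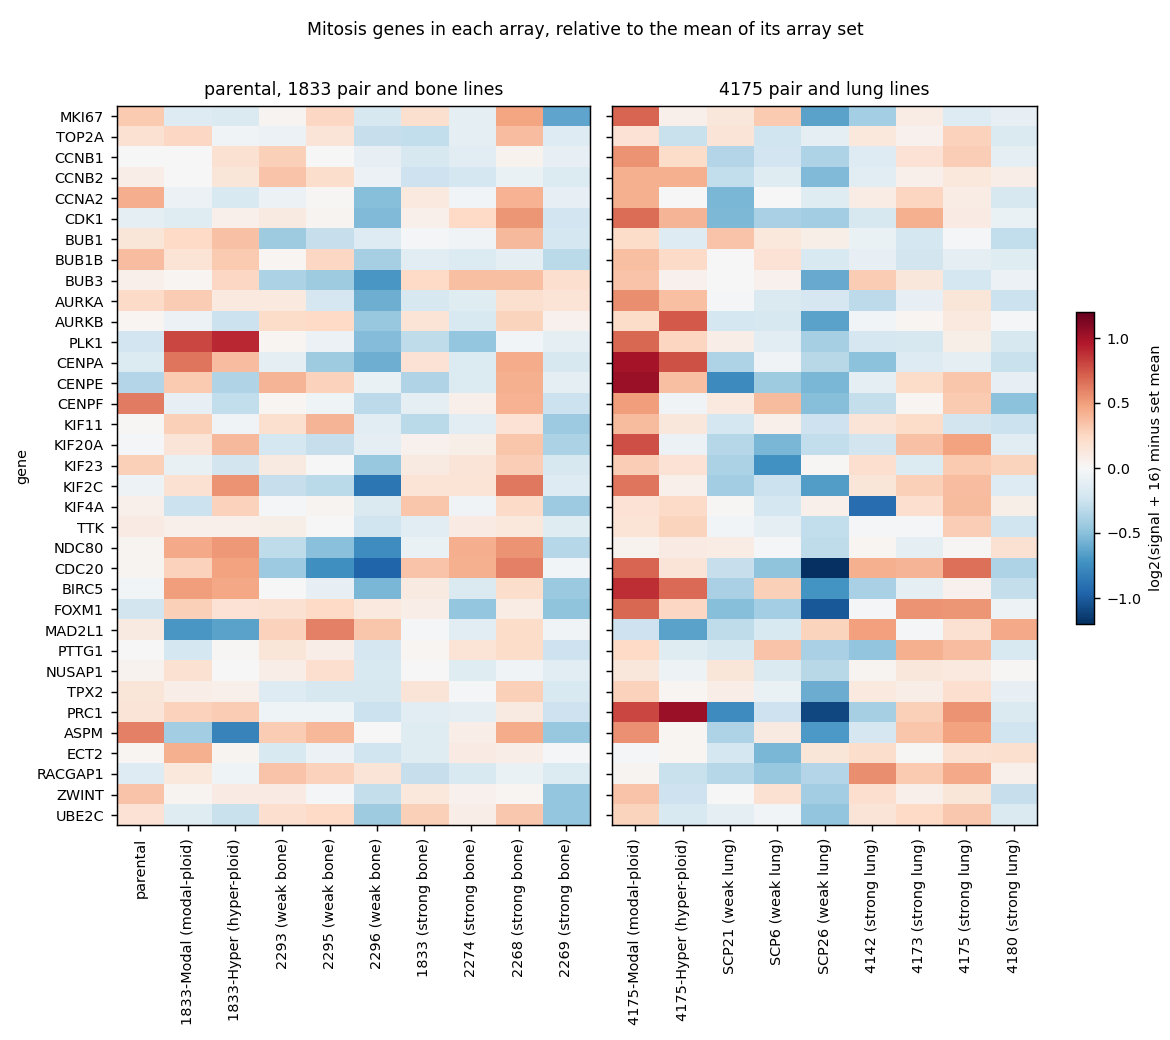
Level of each of the 35 genes (rows) on each array (columns), as log2(signal + 16) minus the mean of the array's set; red is above and blue below that mean. The columns of 2296 and SCP26 are mostly blue and those of 2268 and 4175-Modal mostly red, while MAD2L1 and RACGAP1 follow other patterns.

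**Figure D2:**
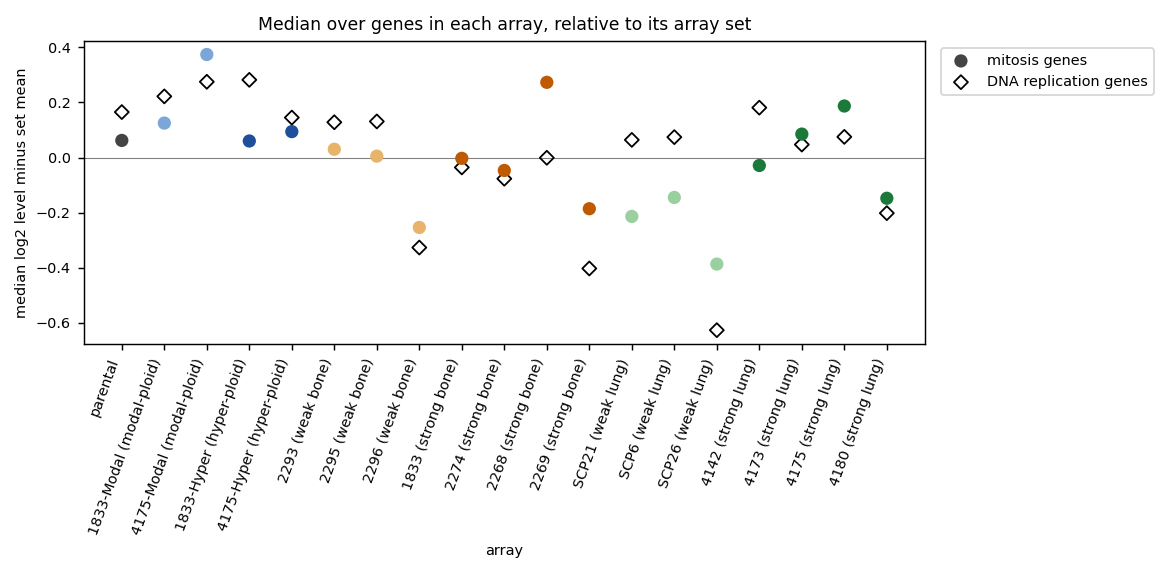
Median over the 35 mitosis genes (filled points) and over 21 DNA replication genes (open diamonds) on each array, as log2 level minus the mean of the array's set. SCP26, 2296 and 2269 are low in both lists, and 4175-Modal and 2268 stand highest for the mitosis genes. The median over all genes, not drawn, was -0.145 on 2269.

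The identity of the lines and the arrays was checked once. The mesenchymal markers VIM, CD44, EGFR, CAV1, MSN and AXL were above the 40th percentile on all 19 arrays, and of 7 genes listed as low in this line PGR was above it on 0, CDH1 on 1, FOXA1 on 3, ESR1 on 16 and KRT18, GATA3 and ERBB2 on all 19. Of 4 leukocyte markers measured, PTPRC was above it on 0 arrays, CD3E and CD14 on 13 and ITGAM on 14. Of 6 markers of endothelium and stroma, CDH5 and VWF were above it on 0, COL3A1 on 7, PECAM1 on 17 and COL1A1 and DCN on all 19. Of lung epithelium, NKX2-1 was above it on 1, SCGB1A1 on 5, SFTPC on 17 and SFTPB on 18, and CALCR, of bone cells, on 2. Before scaling, the trimmed mean signal was 497 to 498 on 15 arrays and 322 to 359 on the 4 ploidy arrays. Spike-in controls averaged 10.5 to 10.9 (log2) on the parental and bone arrays, 9.38 to 10.1 on the lung arrays and 8.71 to 8.93 on the ploidy arrays. Bone and lung lines, and ploidy sublines and their lines of origin, therefore cannot be told apart from the handling of their arrays; differences within an organ or a pair do not cross these levels.

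Between strongly and weakly bone-metastatic lines, CDC20 and BUB3 were higher in the strong lines, and no gene of the 35 passed the threshold as lower. CDC20, the anaphase-promoting complex activator, read 2582, 2092 and 1774 in 2293, 2295 and 2296, and 4423, 4682, 5301 and 3394 in 1833, 2274, 2268 and 2269. Every strong line was above every weak line. The log2 difference was 1.04 (SE 0.28, limma adjusted p = 0.0266, n = 4 against 3). BUB3, a WD-repeat checkpoint protein of the kinetochore, read 6083, 5842 and 4841 in the weak lines and 9346, 10118, 10109 and 9046 in the strong lines, again with no overlap. Its difference was 0.79 (SE 0.19, limma adjusted p = 0.0172), and its probe set is of the kind whose probes may match related transcripts. Its 3 other probe sets gave differences of 0.69, 0.45 and 0.26, and their mean with the brightest 0.55 (limma adjusted p = 0.0683).

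The 2 of 35 genes called in bone stand against 11.6% of all genes called (6.81% higher and 4.84% lower). The median difference of the 35 was 0.05, with 23 positive and 12 negative, against 0.01 over all genes. Scaled to a common trimmed mean, the median was -0.03 with 16 positive, so the genes as a group had no settled direction in bone lines. The DNA replication genes had a median of -0.16 in bone, with 15 of 21 negative and 2 called. With that scaling 5 of the 35 genes passed, against 15.9% of all genes. Of these 5, BUB3, CDC20, KIF2C and NDC80 were higher and RACGAP1 lower. Over all genes the called were 58.5% higher in the main setting and 47.4% higher in that one. Without line 2295 or without line 2296, 0 of the 35 passed, and CDC20 also lost its call without 1833, 2274 or 2268 (limma adjusted p = 0.0580 to 0.109 over these 5).

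KIF2C, a kinesin that depolymerises microtubules at centromeres, read 1974, 1904 and 1309 in the weak and 2681, 2690, 3726 and 2150 in the strong bone lines. These groups did not overlap, and the difference was 0.69 (SE 0.22, limma adjusted p = 0.0555), just short of the threshold. Its second probe set gave 1.02. NDC80, the kinetochore's microtubule-binding protein, had a difference of 0.65 (SE 0.22, limma adjusted p = 0.0686) with overlapping groups.

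At the low end in bone were RACGAP1, MAD2L1 and FOXM1, none past the threshold. RACGAP1 read 1830, 1757 and 1618 in the weak and 1189, 1275, 1360 and 1285 in the strong lines (difference -0.44, SE 0.15, limma adjusted p = 0.0777). MAD2L1 read 1907, 2400 and 1984 against 1551, 1428, 1840 and 1536 (-0.40, SE 0.19, limma adjusted p = 0.198). FOXM1, the forkhead factor that activates many G2 and M phase genes, read 1908, 1973 and 1816 against 1762, 1214, 1774 and 1193 (-0.38, SE 0.23, limma adjusted p = 0.317). In all of these every strong line was below every weak line, as it was in CCNB2, which encodes cyclin B2. Groups that did not overlap were thus 3 genes higher and 4 lower of 35, against 27.6% of all genes (14.7% higher and 12.9% lower).

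Among the spindle checkpoint genes, BUB3 apart, the bone differences were 0.31 for BUB1 (SE 0.17; 0.81 in its next brightest probe set), 0.04 for TTK, the kinase that starts checkpoint signalling, -0.14 for BUB1B and -0.40 for MAD2L1. They ran in both directions, and none of these 4 passed. The entry kinases and cyclins lay between -0.33 (CCNB2) and 0.29 (CCNA2, cyclin A2), with CDK1 at 0.28, CCNB1 at -0.16, AURKA at 0.23, AURKB at 0.08 and PLK1 at -0.03.

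Between strongly and weakly lung-metastatic lines, FOXM1 and RACGAP1 were higher in the strong lines, and most of the other genes lay on the same side without passing. RACGAP1 read 1399, 1294 and 1394 in SCP21, SCP6 and SCP26, and 2622, 2228, 2455 and 1874 in 4142, 4173, 4175 and 4180. The groups were apart, with a difference of 0.74 (SE 0.15, limma adjusted p = 0.00771, n = 4 against 3). FOXM1 read 1594, 1705 and 1114 against 2261, 3319, 3286 and 2177, also apart, with a difference of 0.90 (SE 0.23, limma adjusted p = 0.0241). It has 1 probe set, of the kind whose probes may match related transcripts. Without 4173, 4175 or SCP26 FOXM1 lost its call (limma adjusted p = 0.0756 to 0.0767). With the spread taken from the lung arrays alone both calls were lost (limma adjusted p = 0.0803 for FOXM1 and 0.0633 for RACGAP1).

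The 2 of 35 genes called in lung stand against 8.94% of all genes called (3.4% higher and 5.54% lower). The median difference of the 35 was 0.27, with 28 positive and 7 negative, against -0.01 over all genes. Without SCP26 the median was 0.11, with 25 positive. Scaled to a common trimmed mean, 6 genes passed as higher, CENPE, KIF2C, CDC20 and PRC1 beside those already named. In that setting 11.6% of all genes were called, and the median of the 35 was 0.34. Over all genes the called were 38.1% higher in the main setting and 47.4% in that one. The DNA replication genes had a median of 0.23, with 17 of 21 positive and 0 called.

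CDC20 read 2531, 2195 and 1309 in the weak and 4130, 4083, 4848 and 2362 in the strong lung lines. Line 4180 lay below SCP21, and the difference was 0.94 (SE 0.28, limma adjusted p = 0.0501). PRC1 read 2224, 3166 and 1753 against 2851, 4601, 5482 and 3338, with 4142 below SCP6, and differed by 0.76 (SE 0.24, limma adjusted p = 0.0646). CENPE, the kinesin that carries chromosomes to the metaphase plate, read 329.4, 420.0 and 385.4 against 524.4, 670.1, 724.6 and 533.4, without overlap (0.67, SE 0.21, limma adjusted p = 0.0654). CCNB2 read 1907, 2122 and 1626 against 2130, 2456, 2561 and 2480, which is barely apart (0.35, SE 0.16, limma adjusted p = 0.191).

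At the low end in lung were 3 genes, none past the threshold. BUB1 read 1702, 1466 and 1410 in the weak and 1274, 1161, 1321 and 1093 in the strong lines, every strong line being below every weak line (-0.33, SE 0.17, limma adjusted p = 0.267). Its next brightest probe set gave -0.30, and a dim probe set (mean signal 71.8) gave 0.62. With the mean of its probe sets, that dim probe set included, the difference was -0.00 (limma adjusted p = 0.998). BUB1B, the BUBR1 checkpoint kinase, read 1097, 1249 and 974.0 against 1028, 949.3, 1023 and 993.6 (-0.14, SE 0.17). CENPF, an outer kinetochore protein, read 1647, 1989 and 1063 against 1243, 1543, 1889 and 1076 (-0.11, SE 0.25), and its sign changed without 4180 or SCP6. Groups without overlap were 9 genes higher (CCNB1, CCNB2, CDK1, AURKB, CENPE, KIF20A, KIF2C, FOXM1 and RACGAP1) and 1 lower (BUB1), against 19.7% of all genes (8.37% higher and 11.4% lower).

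The entry kinases and cyclins lay above 0 in lung lines, AURKA apart, and none passed the threshold. CDK1 stood at 0.52 (SE 0.22), CCNB1 and AURKB at 0.37, CCNA2 at 0.29, PLK1 at 0.02 and AURKA at -0.00. Of the checkpoint genes not yet given for lung, MAD2L1 stood at 0.35 (SE 0.19) and TTK at 0.16, so the checkpoint genes ran in both directions in this organ too. NDC80 stood at 0.11, against 0.65 in bone.

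The remaining 12 genes, apart from those of cytokinesis, were not called in either organ. Both proliferation markers were close to even, MKI67 at -0.05 in bone and -0.08 in lung, and TOP2A, the topoisomerase that untangles sister chromatids, at 0.02 and 0.14. The survivin gene BIRC5 stood at 0.14 and 0.09, securin (PTTG1) at 0.03 and 0.12, and UBE2C, the ubiquitin-conjugating enzyme of the anaphase-promoting complex, at 0.05 and 0.34. Among spindle genes TPX2, the activator of AURKA, stood at 0.24 and 0.27, KIF11, the motor that separates spindle poles, at -0.33 and 0.11, and ASPM at -0.25 and 0.41. NUSAP1 stood at -0.11 and 0.19, and KIF4A at 0.07 and -0.02. At the kinetochore, CENPA stood at 0.44 (SE 0.20) and -0.01, and ZWINT, which links the outer kinetochore to the checkpoint, at 0.01 and 0.12.

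Cytokinesis genes other than RACGAP1 and PRC1 differed in lung lines by 0.52 (KIF20A, a kinesin of the central spindle), 0.51 (KIF23, the kinesin of centralspindlin) and 0.36 (ECT2, the exchange factor for RHOA). Their bone differences were 0.22, 0.21 and 0.17, and none passed in either organ. The ACTB 3′ minus 5′ level, a sign of RNA quality, was 0.09 to 0.40 (log2) on the weak and -0.01 to 0.19 on the strong lung arrays. On bone arrays it was -0.21 to 0.04 in the weak and -0.41 to -0.07 in the strong lines. The same measure of GAPDH was -0.24 to 0.24 on the weak and -0.19 to 0.02 on the strong lung arrays, and -0.19 to -0.03 on the weak and -0.12 to 0.12 on the strong bone arrays. In every case the groups overlapped. The part of RNA quality in these differences was not tested.

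**Figure D3:**
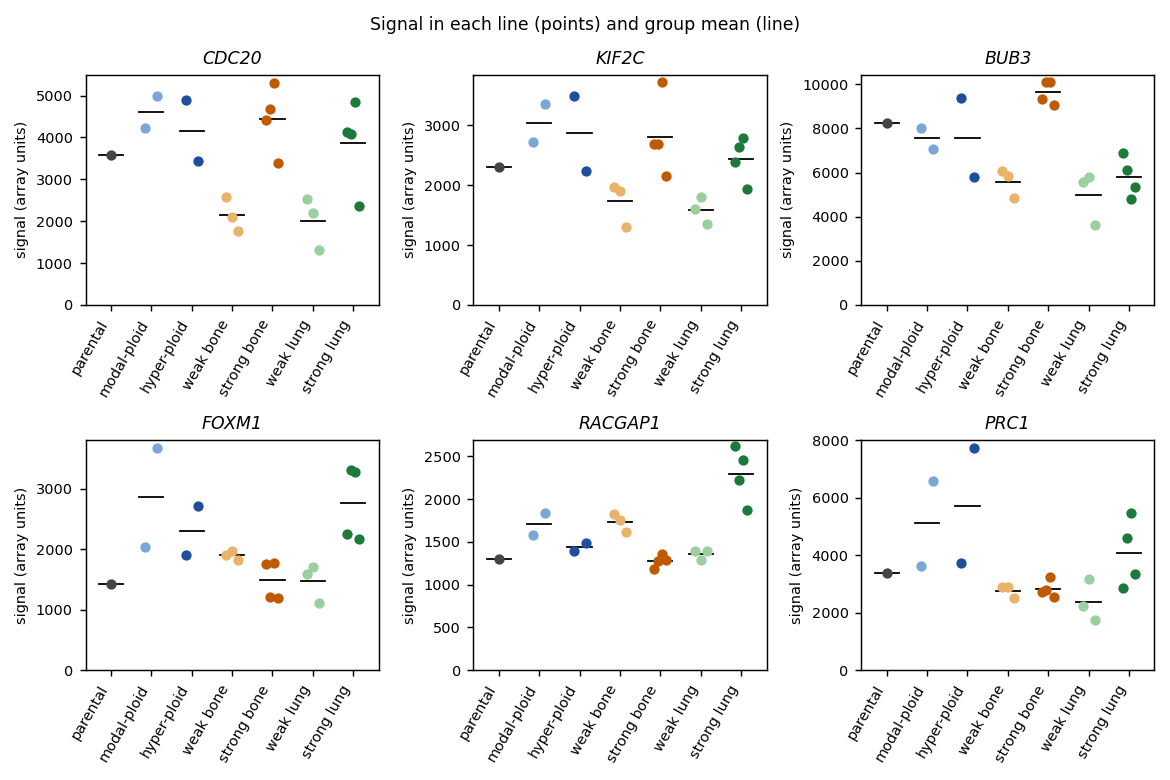
Signal of 6 genes in each line (points), scaled to a common array median, with the mean of each group (line); all axes start at 0. The group means of CDC20 and KIF2C are higher in the strong lines of both organs. By the tests within an organ, CDC20 and BUB3 passed in bone, FOXM1 and RACGAP1 in lung, and KIF2C in neither.

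The difference between strong and weak lines was itself different in bone and in lung for FOXM1 and RACGAP1. For FOXM1, -0.38 in bone stood against 0.90 in lung, a bone minus lung difference of -1.27 (SE 0.32, limma adjusted p = 0.0201). For RACGAP1, -0.44 stood against 0.74, a bone minus lung difference of -1.17 (SE 0.21, limma adjusted p = 0.00317). These 2 of 35 stand against 11.8% of all genes (6.97% higher and 4.82% lower), and both passed in all 24 alternative settings tried. Among these, the setting limited to the arrays of the comparison repeats the main fit here and could not differ from it. The 35 genes had a median of -0.11, against 0.03 over all genes. Scaled to a common trimmed mean the median was -0.25 over the 35 genes, with 29 negative, and -0.10 over all genes. In that setting 5 of the 35 passed, CCNB2, CENPE and PRC1 being added, against 14.4% of all genes. The called genes were then 48.9% higher, against 59.1% in the main setting.

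CDC20, KIF2C and BUB3 were higher in strong lines when the bone and lung differences were averaged. The mean difference was 0.99 for CDC20 (SE 0.20, limma adjusted p = 0.00743), from 1.04 in bone and 0.94 in lung. It was 0.65 for KIF2C (SE 0.15, limma adjusted p = 0.0181), from 0.69 and 0.62, with lung lines reading 1600, 1796 and 1344 (weak) and 2389, 2629, 2784 and 1941 (strong). The lung difference of KIF2C by itself did not pass (SE 0.22, limma adjusted p = 0.102). For BUB3 the mean difference was 0.51 (SE 0.14, limma adjusted p = 0.0308), from 0.79 and 0.23. Its lung lines read 5561, 5789 and 3645 (weak) and 6884, 6097, 4821 and 5325 (strong), which overlapped. These 3 of 35 stand against 8.85% of all genes called (4.03% higher). CDC20 and KIF2C passed in all 24 alternatives, the repeat of the main fit included. BUB3 did not pass in 9 of the 14 that left out 1 line (limma adjusted p = 0.0520 to 0.0784). Those 9 left out 2293, 2295, 2296, 1833, 2274, 2268, SCP26, 4142 or 4173.

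**Figure D4:**
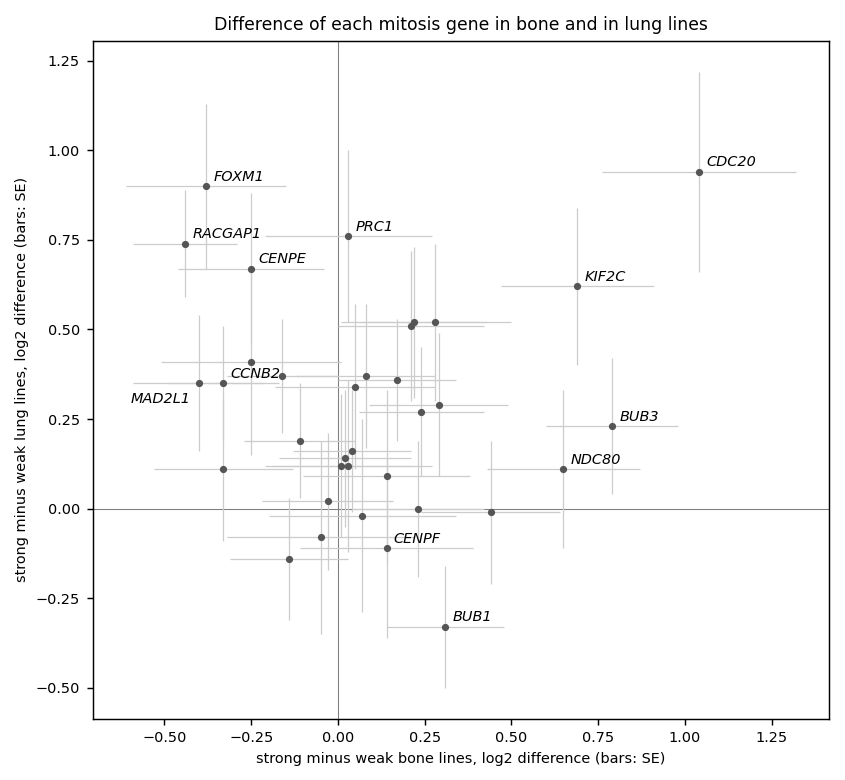
Strong minus weak log2 difference of each of the 35 genes in bone lines (horizontal axis) and in lung lines (vertical axis), with bars of 1 SE from limma. CDC20 and KIF2C lie far up in both, whereas FOXM1 and RACGAP1 lie left of 0 for bone and above 0 for lung.

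Related genes of mitosis, 92 tested in 6 classes, gave 8 calls in bone (5 higher, 3 lower), where 11.6% of all genes were called, and 5 in lung (4 higher, 1 lower), where 8.94% were. Neither count exceeds that share. In bone lines MYH10, a nonmuscle myosin of the cleavage furrow, was higher by 2.69 (SE 0.32, limma adjusted p = 0.000215), with mean signals of 149.9 in weak and 1001.6 in strong lines. MIS18A, a loading factor for CENPA, rose by 0.81, and CDC27, a subunit of the anaphase-promoting complex, by 0.71. WAPL, the cohesin release factor, rose by 0.75, but by 0.15 (not called) with the mean of its probe sets. Lower in bone were NUMA1, which gathers spindle poles (-1.25), ESPL1, the separase that cuts cohesin (-0.86), and SMC1A, a cohesin subunit (-0.76). Of these 7, MYH10 passed whichever bone line was left out, and SMC1A passed in 1 of those 7 alternatives. With the mean of its probe sets SMC1A stood at -0.66 (limma adjusted p = 0.124).

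In lung lines HJURP, the chaperone of CENPA, rose by 0.73, the microtubule-destabilising STMN1 by 0.70, the condensin subunit NCAPD2 by 0.70 and the kinetochore protein MIS12 by 0.61. MYH10 was lower there (-1.46, SE 0.32, limma adjusted p = 0.0126), with means of 1214.5 in weak and 450.6 in strong lines. With a lung line left out MYH10 passed in 6 of 7 alternatives, HJURP in 4, MIS12 and STMN1 in 2 and NCAPD2 in 1. The bone minus lung difference passed in 13 of the 92 genes, near the 11.8% of all genes. On its negative side, with FOXM1 and RACGAP1, were NUMA1 (-1.63), ESPL1 (-1.46), SMC1A (-1.31) and MYBL2, the B-Myb factor of G2 and M phase transcription (-1.26). On its positive side were MYH10 (4.14), SKA1 of the outer kinetochore (1.64), MIS18A (1.26) and WAPL (0.91). The SKA1 probe set is of the kind whose probes may match related transcripts. Its mean signal in strong lung lines was 83.4, against a 40th percentile of 83.8 to 86.5 on those arrays. The SKA1 call held in 11 of 14 alternatives that left out a line. The WAPL call held in 3 of 14 alternatives that left out a line, and with the mean of probe sets WAPL stood at 0.24 (limma adjusted p = 0.565) and SMC1A at -0.61 (limma adjusted p = 0.322). For the mean of both organs 3 of the 92 passed, against 8.85% of all genes (4.03% higher). All 3 were higher: STMN1 (0.66), HJURP (0.52) and CDCA8, the borealin subunit of the complex that holds AURKB and BIRC5 (0.51). With a line left out STMN1 passed in all 14 alternatives, and HJURP and CDCA8 in 7 each.

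By class, the calls in bone were 0 of 15 entry regulators, 2 of 20 kinetochore and centromere genes, 1 of 9 of the anaphase-promoting complex, 3 of 17 of condensin and cohesin, 1 of 19 spindle genes and 1 of 12 of cytokinesis. In lung they were 0, 2, 0, 1, 1 and 1 in the same order. Over all genes 11.6% were called in bone and 8.94% in lung, and no class was tested against these shares. The medians over the 92 were 0.03 in bone and 0.13 in lung.

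Between hyper-ploid and modal-ploid sublines none of the 35 genes passed (limma, line of origin as a block, n = 2 against 2), and 1 had an unadjusted p under 0.05, CENPE. Over all genes 1 passed (0.0105%) and 499 had such a p. The difference of the 35 genes had a median of -0.16, with 28 of 35 negative, against -0.01 and 51.0% negative over all genes. In the main scaling the pairs were unlike. The median was -0.01 in the 1833 pair, with 18 of 35 lower in 1833-Hyper. It was -0.30 in the 4175 pair, with 28 lower in 4175-Hyper. Over all genes the pair medians were 0.06 and -0.06. Scaled to a common trimmed mean, the medians of the 35 genes against their set were 0.09 in 1833-Modal and -0.07 in 1833-Hyper. In the 4175 sublines they were 0.21 and 0.09, modal first, so the contrast between the pairs depended on the scaling. In the main scaling 16 of 35 were lower in both pairs (45.7%, against 22.5% of all genes), and 5 were higher in both (against 24.3% of all genes). None differed by over 2-fold, which 3.11% of all genes did in the 1833 pair and 5.04% in the 4175 pair. As given above, 4175-Modal had the highest median of the 35 genes on any array, and the difference in that pair is taken from it.

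CENPE read 679.3 in 1833-Modal and 419.1 in 1833-Hyper, and 1188 in 4175-Modal and 737.9 in 4175-Hyper. The differences of -0.68 and -0.67 were nearly equal (mean -0.68, SE 0.26, limma adjusted p = 0.783). ASPM, a spindle pole protein, read 950.3 and 727.8 in the 1833 pair and 2327 and 1607 in the 4175 pair, modal first (-0.38 and -0.53, mean -0.45, SE 0.27). CENPF read 1232 and 1081, then 2171 and 1475 (-0.19 and -0.55, mean -0.37, SE 0.27). All of these were lower in both hyper-ploid sublines, by amounts that did not pass (limma adjusted p = 0.9997 for ASPM and CENPF). The spread in that test came mostly from the other genes.

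At the other end, KIF4A, a chromosome-bound kinesin, read 1082 and 1576 in the 1833 pair and 1840.0 and 1906 in the 4175 pair (0.54 and 0.05). PRC1 read 3641 and 3721, then 6582 and 7721 (0.03 and 0.23). CCNB2 read 2380 and 2626, then 3146 and 3147 (0.14 and 0.00). Only KIF4A in the 1833 pair and AURKB in the 4175 pair (0.51) exceeded 0.5 in either pair. Of the related genes 0 of 92 passed, 1 with an unadjusted p under 0.05, and 61 were negative, with a median of -0.09. The DNA replication genes had a median of -0.04.

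Set against their lines of origin, with 1 array each and no test, the sublines differed most in PLK1 and CENPA, the centromeric histone. PLK1 read 708.6 in line 1833 and 1535 and 1663 in its modal and hyper-ploid sublines (log2 differences of 1.10 and 1.21). CENPA read 504.2 in line 4175 and 1105 and 931.0 in its sublines (1.11 and 0.86). MAD2L1 was lower in the sublines, with 1551 in 1833 against 963.9 and 1011, and 2002 in 4175 against 1488 and 1123. The medians of the 35 genes against the line of origin were 0.18 and 0.15 in the 1833 sublines and 0.20 and -0.13 in the 4175 sublines, modal first. Among all genes 11.6% to 13.4% differed by over 2-fold in these comparisons, which cross the array handling noted above.

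**Figure D5:**
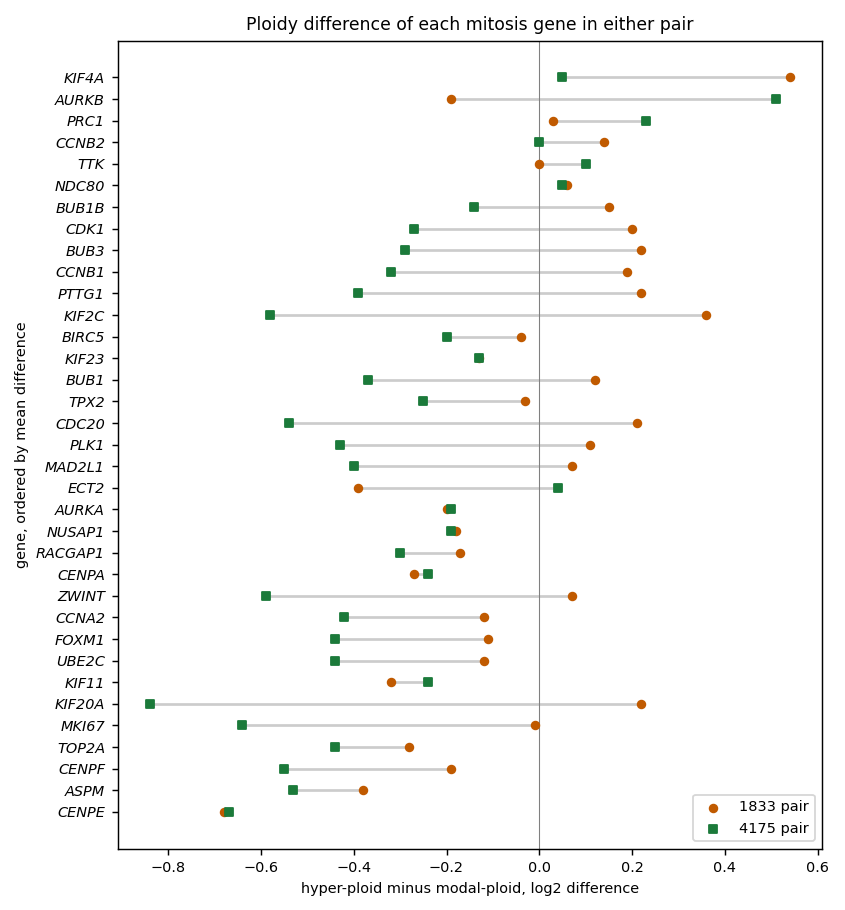
Hyper-ploid minus modal-ploid log2 difference of each of the 35 genes in the 1833 pair (circles) and the 4175 pair (squares), ordered by the mean; a line joins the values of a gene. Most squares lie left of 0, the circles lie on both sides, and CENPE at the bottom has both at about -0.7.

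The parental line read 3587 for CDC20 and 2306 for KIF2C, above every weak bone line, and 8239.9 for BUB3, between the weak and the strong bone lines. For FOXM1 it read 1434 and for RACGAP1 1299, both within the range of the strong bone lines and below every weak one. It has 1 array, so these values carry no spread.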

How the data were processed

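The genes and the lists were chosen with earlier results of these data known. The authors' deposited values were linear ratios, and how they were made is read from the values alone, since the labels describe RNA labelling only. The software for image analysis and normalisation was not given in the sources used here. In the first array set (10 arrays) the median ratio of a probe set was 1 for 91.6% of probe sets, and in the second (9 arrays) for 0.0224%, so each set had its own divisor per probe set. Once divisors and array factors were taken out, ratios were whole multiples of 0.1 signal units (tolerance 0.01 steps), and signals were recovered for 22276 of 22283 probe sets. With values shuffled within arrays 0.0% and 0.2% were recovered. The design had assumed expression values in place of ratios.

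Signals were scaled to a common median, and a probe set was kept if above its array's 40th percentile on at least 2 arrays. Of the probe sets, 19071 had 1 gene symbol, 1043 several and 2169 none in the platform annotation, and 19059 of the first had a RefSeq gene (GRCh38.p14). The brightest kept probe set stood for a gene. Values of log2(signal + 16) were fitted with limma 3.58.1 in R 4.3.3 (lmFit, eBayes), adjusted by Benjamini-Hochberg over 9550 genes, threshold 0.05. The 14 strong and weak lines shared a fit of 4 group means (10 residual degrees of freedom, prior 3.92). The ploidy fit used 4 arrays with line of origin as a block (1 residual, prior 10.9), the pairing being that of the cell lines in the labels. The number of arrays limits the precision. The recovery and the fits were tested on simulated data.

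Values per array are given for genes that passed in a comparison and for the 3 highest and 3 lowest in each of the ploidy, bone and lung comparisons (for ploidy, of 1 sign in both pairs), and of related genes at most the 4 highest and 4 lowest that passed are named. Alternatives were other scalings, offsets of 1 and 64, other filters, the mean of a gene's probe sets, the deposited ratios, other sets of arrays, and each line left out.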

Additional observations from a re-analysis of the deposited data

Results flagged for a closer look

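Strong minus weak differences that differed between organs were found, by a test of the difference itself, in 2 of the 35 genes. Of all genes 11.8% passed that test. FOXM1 had a bone minus lung difference of -1.27 (limma adjusted p = 0.0201), with all 4 strong bone lines below and all 4 strong lung lines above their weak lines. RACGAP1 had -1.17 (limma adjusted p = 0.00317), with the same arrangement. Neither bone difference passed by itself (limma adjusted p = 0.317 for FOXM1 and 0.0777 for RACGAP1). In the groups of 4, 30 sets of values were searched for a line far from the other 3. None was found, where chance gives about 1 in 20. With only 4 lines in a group such a search can miss a line that stands apart, so no conclusion is drawn from it.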

How the results depend on the processing

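The counts of genes past the threshold depended on scaling and on single lines more than the differences did. With a common trimmed mean or no further scaling, 5 of the 35 passed in bone, 6 in lung and 5 for the bone minus lung difference. Of all genes 15.9%, 11.6% and 14.4% were then called, against 11.6%, 8.94% and 11.8% in the main setting. With quantile normalization 4, 6 and 7 passed, the last with a median of -0.27, against 15.3%, 12.3% and 15.1% of all genes. An offset of 64 gave 4 in lung (10.3% of all genes). A stricter filter gave 5 in lung (12.2% of all genes) and 4 for the bone minus lung difference (15.3%). The lung arrays alone gave 0 in lung (447 over all genes, 4.68%). Leaving out 1 line gave 0 to 4 in bone, 1 to 3 in lung and 2 to 4 for the bone minus lung difference. Over all genes it gave 554 to 1261 in bone and 506 to 1007 in lung. It gave 791 to 1409 for the bone minus lung difference and 520 to 915 for the mean of both. The median in lung ran from 0.11 to 0.33. For ploidy, 0 of the 35 passed in every one of the 13 alternatives, with no replicate block and with the replicate block over all 19 arrays included. Over all genes 0 passed with no replicate block, with all 19 arrays, with either other scaling or quantile normalization, with the deposited ratios, with no filter and with an offset of 1. With the stricter filter 5 passed. With a pair left out, the difference is that of 1 array against 1, and the spread is taken from a fit of all 19 arrays. In the main scaling, the median over the 35 genes was -0.30 without the 1833 pair and -0.01 without the 4175 pair. The CENPF difference in lung turned to 0.02 with the mean of probe sets, and ran from -0.36 to 0.09 with a line left out. The cause of these changes was not tested. The single array per line and probes that may match related transcripts limit all values.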

Other observations

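CDC20 and KIF2C were the genes higher in strong lines for the mean of both organs in all 24 alternatives, the repeat of the main fit included. They lie within 1.41 Mb on chromosome 1 in GRCh38.p14. This was looked at after their values were seen. Of the 13 tested genes that lie between them, 2 (DPH2 and ATP6V0B) passed as higher for the mean of both organs, 0 as lower, and the median difference was 0.29, from -0.26 to 0.61, with 10 positive. Over all genes the median was 0.00, and 4.03% were called higher.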
